A study of Mus musculus with 30 samples.

Results

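The depot difference in the early cold response is, for each gene, the log2 fold change after 6 h of cold in brown adipose tissue (BAT) minus the log2 fold change after 6 h of cold in inguinal white adipose tissue (iWAT). A positive value means that BAT went up more, or down less, than iWAT, and a negative value the reverse. It was computed for every gene with enough reads, 14089 of the 21652 genes in the count table, and no gene was chosen by its values. The contrast rests on 20 of the 30 libraries: 5 of iWAT and 5 of BAT from male C57BL/6J mice aged 7 to 8 weeks labelled 22 °C, and 5 of each depot from such mice after 6 h at 6 °C. The remaining 10 libraries, taken after 24 h at 6 °C, entered the same fit and served to estimate the spread. No group carried a transgene, deletion or drug by its labels, and all groups shared a 12 h light and 12 h dark cycle with 5 mice per cage. The housing text gives a room at 24 ± 2 °C, while the sample labels give 22 °C for the warm groups. Nothing in the labels says that the libraries of a group came from separate mice, so p-values measure the spread between libraries, which may be technical in part.

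Brown adipocytes oxidise fatty acids and glucose in abundant mitochondria and release the energy as heat through uncoupling protein 1. Cold is signalled to adipose tissue by noradrenaline from sympathetic nerves, which raises cyclic AMP, activates protein kinase A, starts lipolysis and switches on genes through cyclic AMP response elements in their promoters. Inguinal fat is mainly a lipid store that holds few thermogenic adipocytes in the warm and gains more of them in the cold, whereas interscapular BAT is thermogenic throughout.

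The 20 libraries held 25345889 to 40986043 assigned counts each. Depot labels matched the defining markers: Zic1, a transcription factor of interscapular brown fat, averaged 18.5 CPM (read counts scaled to a common library size) in BAT at 22 °C and 0.0093 in iWAT. The positional gene Hoxc10 averaged 17.3 CPM in iWAT and was at 0 in all BAT groups of the contrast. The summed level of 10 brown adipocyte markers ran from 13400 to 16900 CPM in BAT at 22 °C and from 224 to 1370 CPM in iWAT. Skeletal muscle transcripts set 1 library apart: the summed level of 12 muscle markers was 3500 CPM in iWAT at 22 °C replicate 2 and 3.03 to 7.91 in the other 4. In BAT it ranged from 261 to 8760 CPM at 22 °C and from 19.1 to 1530 after 6 h.

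The full cyclic AMP response element, TGACGTCA, was looked for on both strands in the 250 bases before each RefSeq start (GRCm38.p6). It occurred in 508 of 32851 promoters in that table, 1.55%. Of the 120 genes named by the selection rules, 94 had a promoter there, and 4 of them held the element. These 4 are printed because their 6 h responses cover most of the patterns described here: Dio2 rose in both depots, Maff rose in both but more in BAT, Hlf fell in BAT, and Pnpla3 fell in BAT and rose in iWAT. The capitals mark the element, whose first letter lies 95 bases before the start of Dio2, 29 before 1 of 3 starts of Maff, 9 before that of Hlf and 46 before that of Pnpla3. The stretches are chr12:90739066-90739193 (minus strand), chr15:79347431-79347519 (plus strand), chr11:90390918-90390986 (minus strand) and chr15:84167710-84167815 (plus strand) of GRCm38.p6, not of the GRCm39 build named for the counts.
Dio2: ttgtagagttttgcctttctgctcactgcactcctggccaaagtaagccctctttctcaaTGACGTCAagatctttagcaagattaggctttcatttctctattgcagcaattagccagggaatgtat
Maff: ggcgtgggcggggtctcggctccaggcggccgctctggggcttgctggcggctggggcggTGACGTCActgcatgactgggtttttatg
Hlf: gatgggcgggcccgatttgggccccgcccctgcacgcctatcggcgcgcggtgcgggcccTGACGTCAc
Pnpla3: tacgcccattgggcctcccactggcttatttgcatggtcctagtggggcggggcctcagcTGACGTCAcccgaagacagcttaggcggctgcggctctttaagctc
A match of letters is a description and not a bound site. The shorter word TGACG, which is contained in the full element, was in 17.8% of all promoters and in 30 of the 94 named genes, and the E-box CACGTG in 6.02% of promoters and 12 named genes. The shares over the table count promoters, while a named gene with several promoters counts once if any of them holds the word, so the counts of genes and these shares are not on the same footing.

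After 6 h, 1325 genes differed between the depots, 9.4% of those tested (edgeR quasi-likelihood test, adjusted p under 0.05, the threshold used throughout for a called gene). For 849 of them (6.03%) the BAT response lay below the iWAT response and for 476 (3.38%) above it. Differences of at least 1 on the log2 scale numbered 256, with 127 above and 129 below. The depots' own responses were called more often: in iWAT 2517 genes (17.9%) rose and 1501 (10.7%) fell, and in BAT 1485 (10.5%) rose and 1275 (9.05%) fell. These shares over all tested genes are the background for the counts of each gene list below. Among the 1325, iWAT alone passed its own test for 607 genes, 430 of them rising, and BAT alone for 526, 305 of them falling. Below, a gene said to change in BAT alone or iWAT alone passed only there. The change of the other depot, though not called, still enters the difference. Both depots passed in opposite directions for 100 genes and in the same direction by different amounts for 31, and neither passed for 61. All 100 genes called in opposite directions were also called for the difference, 64 falling in BAT and rising in iWAT and 36 the reverse. Opposite changes add up in the difference, so this outcome was largely built in and is no separate support.

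**Figure D1:**
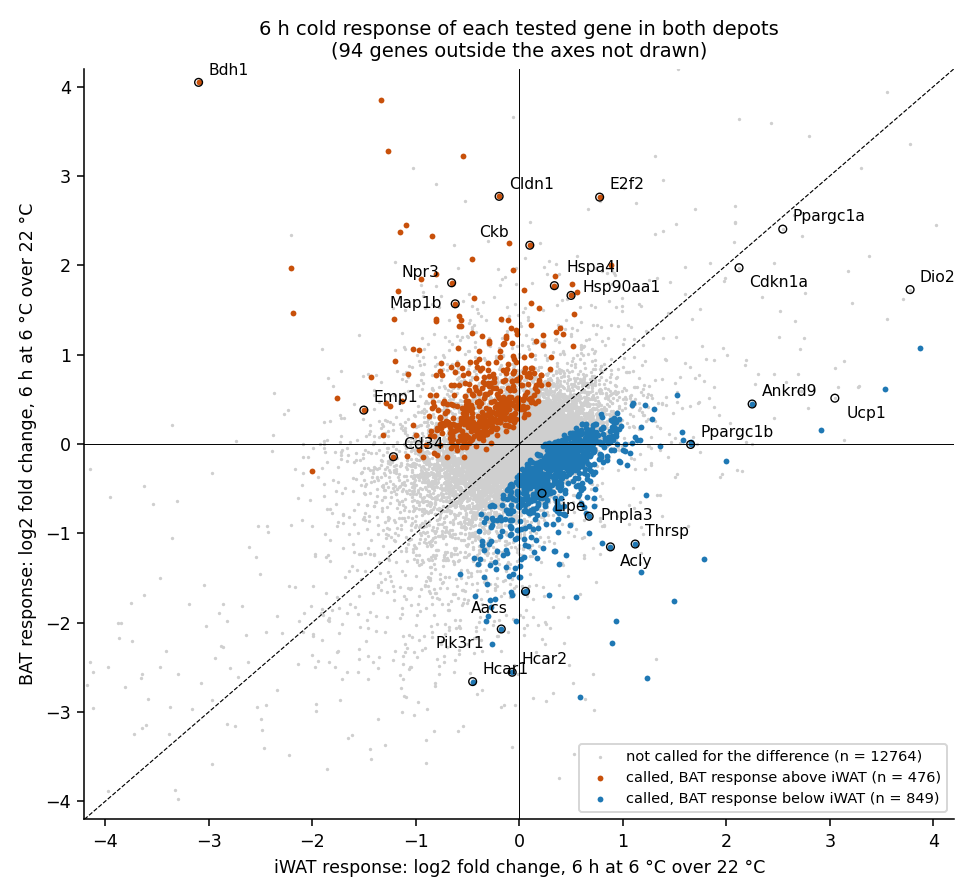
Log2 fold change after 6 h at 6 °C in iWAT (horizontal) against BAT (vertical) for each tested gene, coloured by the call for the depot difference; the dashed line marks equal responses, and 94 genes outside the axes are not drawn. The 849 genes with the lower BAT response lie below the line, with Thrsp, Acly and Ppargc1b among them, and the 476 with the higher BAT response lie above it.

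The direction of this split depended on how the libraries were scaled. The trimmed-mean scaling factors (TMM) were 1.19 to 1.38 in iWAT at 22 °C, 1.02 to 1.2 in iWAT after 6 h and 0.754 to 0.877 in BAT, so scaling by total counts moved iWAT values more than BAT values. Under TMM 64.1% of called genes had the lower BAT response, under upper-quartile factors 50.5% (644 below, 631 above), and on deposited FPKM, which scale by the total, 15.4% (401 below, 2205 above; pseudocount 1). The median depot difference of all tested genes was -0.02 under TMM and 0.13 on that FPKM scale. The median of each list below is to be read against the value of its own scale. Of the 1325 genes, 1317 kept their sign and 855 their call on the FPKM scale. The number called also rested on single libraries of several groups. For iWAT at 22 °C it was 862 without replicate 1, 871 without replicate 2 and 2173 without replicate 4. The genes with the lower BAT response numbered 559, 546 and 1506 in those fits. For BAT after 6 h, 922 genes were called without replicate 3 and 1921 without replicate 1, where 1334 had the lower BAT response. Without iWAT after 6 h replicate 3 the number was 1865. Genes with the higher BAT response numbered 303 without iWAT at 22 °C replicate 1 and 316 without BAT after 6 h replicate 3.

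**Figure D2:**
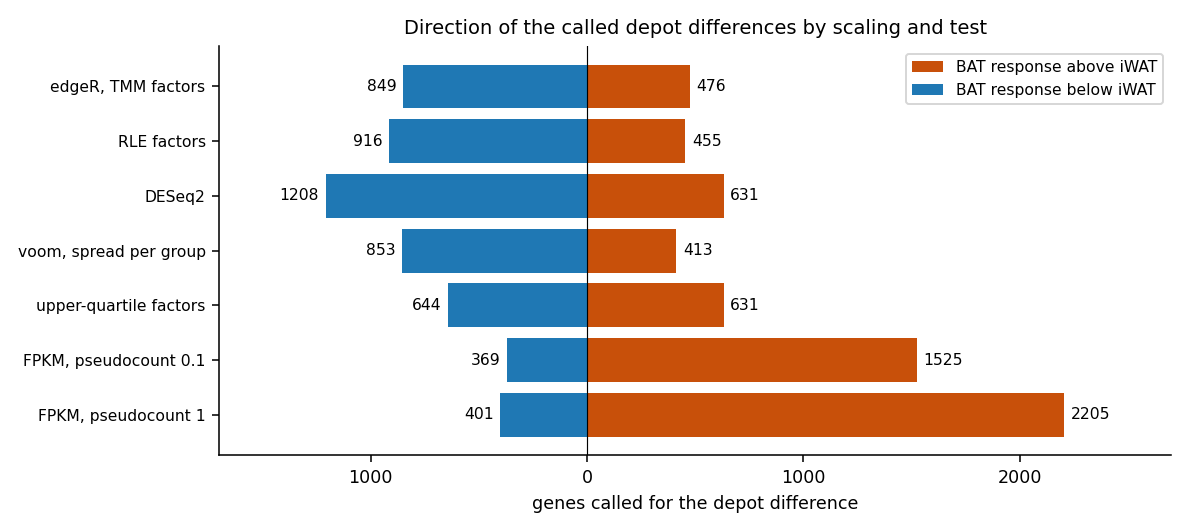
Number of genes called for the depot difference in each direction (bars to the right, BAT response above iWAT; to the left, below) under 7 scalings and tests. Bars to the left are longer under TMM (849 against 476) and RLE, about even under upper-quartile factors (644 against 631), and shorter on FPKM (401 against 2205).

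Among genes of fat synthesis, Thrsp (ENSMUSG00000035686), a nuclear protein that promotes lipogenic gene expression, was at 2710, 1590, 2290, 2350 and 2500 CPM in the 5 BAT libraries at 22 °C and at 1340, 896, 1110, 911 and 1010 after 6 h. In iWAT it was at 1010, 768, 876, 1290 and 1150 CPM at 22 °C and at 3100, 1520, 2040, 1980 and 2430 after 6 h. Cold and warm libraries did not overlap in either depot, and the order of the depots was reversed: BAT was the higher at 22 °C and iWAT after 6 h. The response was -1.12 ± 0.22 in BAT and 1.12 ± 0.22 in iWAT (log2, ± SE), a difference of -2.24 ± 0.31 (adjusted p = 6.41e-05).

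Of the 22 tested genes of de novo lipogenesis, 10 had the lower BAT response and none the higher, with a median difference of -0.95 against -0.02 over all tested genes (-0.567 against 0.128 on FPKM with pseudocount 1). In BAT 5 of them fell and in iWAT 11 rose. Acly (ENSMUSG00000020917), which makes cytosolic acetyl-CoA from citrate, was at 3980, 1440, 3170, 2560 and 3430 CPM in BAT at 22 °C and at 1210, 987, 1560, 1730 and 1070 after 6 h. In iWAT Acly was at 698, 445, 708, 768 and 1190 CPM at 22 °C and at 1100, 801, 850, 2790 and 1470 after 6 h. The groups overlapped in both depots, and the high cold value of iWAT belonged to replicate 4. Its difference was -2.03 ± 0.56 (adjusted p = 0.022), with a called fall in BAT (-1.15 ± 0.40) and a value of 0.88 ± 0.40 in iWAT that did not pass (adjusted p = 0.0952). Without iWAT after 6 h replicate 4 the difference of Acly was -1.62 and no longer passed (adjusted p = 0.0558), and the list's median became -0.615. Fasn, the fatty acid synthase, differed by -1.34 ± 0.38 (adjusted p = 0.0253), from 14130 ± 2767 to 8649 ± 1942 CPM in BAT and from 4228 ± 796 to 6536 ± 2331 in iWAT (mean ± SD, n = 5), with neither depot's own change passing. Its call was lost without iWAT at 22 °C replicate 2, iWAT after 6 h replicate 4 or BAT after 6 h replicate 5 (largest adjusted p = 0.0571). Pnpla3, a lipid droplet protein induced by lipogenic feeding, fell in BAT from 132.8 ± 23.6 to 75.8 ± 14.3 CPM and rose in iWAT from 186.2 ± 44.6 to 297.3 ± 113.4 (difference -1.48 ± 0.34, adjusted p = 0.00706). Mlxipl, the carbohydrate-responsive factor ChREBP, went from 292.1 ± 20 to 245.1 ± 23.4 CPM in BAT, which did not pass, and rose from 118.4 ± 7.14 to 157.7 ± 18.3 in iWAT (difference -0.67 ± 0.17, adjusted p = 0.0126; not called on FPKM with either pseudocount, adjusted p = 0.0578 and 0.0688). Aacs, which activates acetoacetate for lipid synthesis in the cytosol, fell in BAT from 290.9 ± 29.7 to 92.8 ± 18.1 CPM and stood at 181.4 ± 29.8 and 189.1 ± 10.7 in iWAT (difference -1.71 ± 0.23, adjusted p = 6.41e-05).

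**Figure D3:**
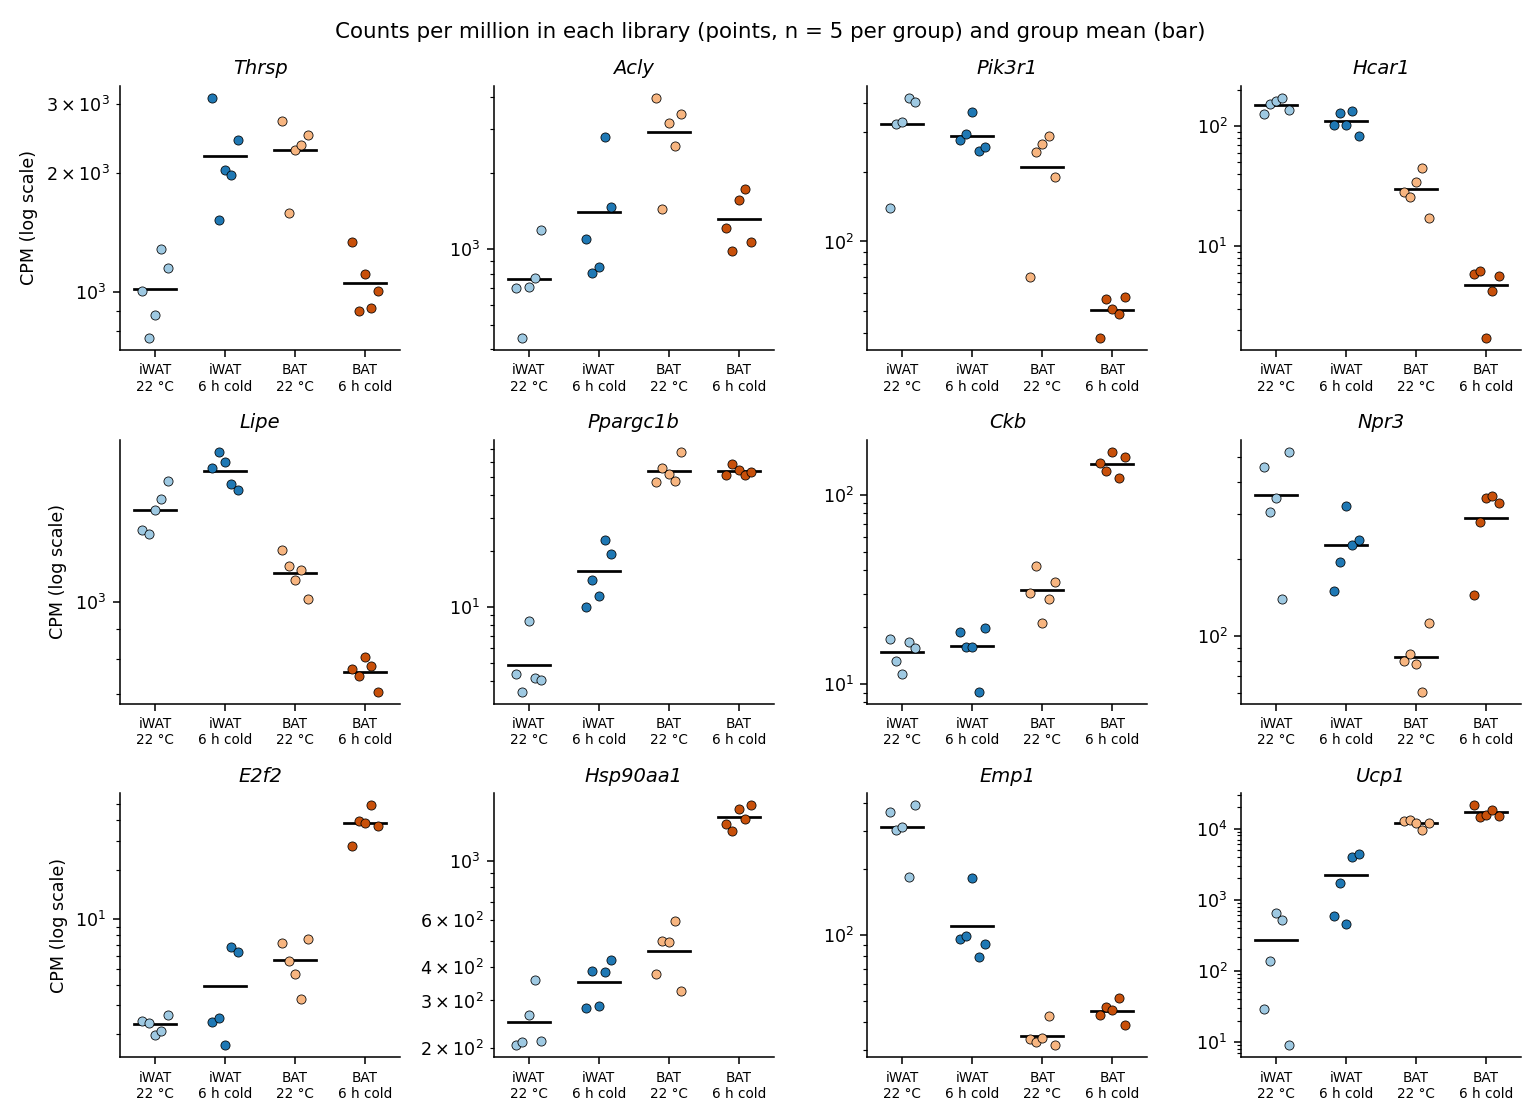
CPM of 12 genes in each of the 20 libraries (points, 5 per group; bars are group means; log axes, own scale per panel). Thrsp fell in BAT and rose in iWAT with no overlap, Pik3r1 and Hcar1 fell in BAT alone, Ppargc1b rose in iWAT alone, and Ckb and E2f2 rose in BAT alone.

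Genes of lipolysis and the lipid droplet had the lower BAT response in 7 of 17 cases and the higher in none (median difference -0.30, and -0.154 on FPKM with pseudocount 1). Hormone-sensitive lipase, Lipe (ENSMUSG00000003123), stood at 1220, 1150, 1090, 1130 and 1010 CPM in BAT at 22 °C and at 771, 749, 807, 779 and 706 after 6 h, with no overlap. In iWAT it stood at 1320, 1300, 1430, 1490 and 1600 CPM and then at 1680, 1790, 1720, 1580 and 1540, with overlap. The difference of -0.77 ± 0.10 (adjusted p = 5.05e-05) combined a fall of Lipe in BAT (-0.55 ± 0.07) with a rise in iWAT (0.22 ± 0.07). Pnpla2, the adipose triglyceride lipase that acts before it, did not pass in BAT (2498 ± 263 to 2158 ± 377 CPM) and rose in iWAT (1619 ± 192 to 2408 ± 443), a difference of -0.78 ± 0.19 (adjusted p = 0.0106). The droplet protein Cidec, which fuses droplets, fell in BAT from 1057 ± 101 to 847 ± 76 CPM and rose in iWAT from 1552 ± 113 to 2317 ± 375 (difference -0.90 ± 0.16, adjusted p = 0.00065).

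Hcar1 and Hcar2, receptors that restrain lipolysis, fell in BAT. Hcar1 (ENSMUSG00000049241), the lactate receptor, was at 28.3, 25.5, 34.3, 45 and 17.2 CPM in BAT at 22 °C and at 5.88, 6.22, 1.72, 4.26 and 5.68 after 6 h. In iWAT Hcar1 was at 126, 154, 164, 173 and 138 CPM and then at 102, 130, 103, 134 and 83.8. All cold BAT libraries lay below the warm range, while iWAT overlapped, and the difference was -2.21 ± 0.35 (adjusted p = 0.000303). The hydroxybutyrate and niacin receptor Hcar2 went the same way, from 5.03 ± 2.62 to 0.852 ± 0.383 CPM in BAT and from 43.5 ± 9.76 to 41.4 ± 7.63 in iWAT (difference -2.49 ± 0.40, adjusted p = 0.000353).

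Fatty acid uptake and triglyceride synthesis had 8 of 24 genes with the lower BAT response and none with the higher, at a median difference of -0.325 (-0.101 on FPKM with pseudocount 1). The fatty acid transporter Slc27a1 fell in BAT (182.4 ± 29.2 to 119.9 ± 22.1 CPM) and rose in iWAT (588.4 ± 89 to 967.2 ± 194.4), a difference of -1.32 ± 0.23 (adjusted p = 0.000628). Agpat2, an acyltransferase of triglyceride assembly, rose in iWAT from 611.4 ± 127 to 1255 ± 300 CPM and did not pass in BAT (1620 ± 175 to 1380 ± 265; difference -1.27 ± 0.23, adjusted p = 0.00124). Pck1, which supplies glycerol phosphate for fatty acid re-esterification, fell in BAT and rose in iWAT (-0.36 ± 0.12 and 0.38 ± 0.12; difference -0.74 ± 0.17, adjusted p = 0.00665).

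Of 20 genes of insulin and IGF signalling 6 fell and 3 rose in BAT, and 3 fell and 5 rose in iWAT. Pik3r1 (ENSMUSG00000041417), the regulatory subunit of phosphoinositide 3-kinase, was at 70.2, 244, 265, 286 and 191 CPM in BAT at 22 °C and at 38.2, 56.5, 51, 48.3 and 57.6 after 6 h. In iWAT Pik3r1 was at 140, 322, 331, 420 and 405 CPM and then at 275, 292, 364, 246 and 257. Replicate 1 was the low library in the warm group of both depots, and the difference was -1.90 ± 0.36 (adjusted p = 0.00155). Irs1, the docking protein upstream, also fell in BAT alone, from 68.1 ± 12.6 to 40 ± 3.66 CPM (difference -0.66 ± 0.18, adjusted p = 0.02; not called on FPKM, adjusted p = 0.147 and 0.104). For the depot difference 3 of the list had the lower and 1 the higher BAT response. The list's median of -0.17 turned positive on FPKM (0.06 with pseudocount 1, against 0.128 over all tested genes) and was -0.0877 without iWAT after 6 h replicate 3. Among secreted factors, where 5 of 28 were lower and 2 higher, the NAD-synthesising enzyme Nampt fell in BAT and rose in iWAT (difference -0.81 ± 0.15, adjusted p = 0.00155). The vascular peptide Apln fell in BAT alone, from 8.06 ± 2.68 to 3.32 ± 0.639 CPM (difference -1.45 ± 0.36, adjusted p = 0.0112).

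Genes of the respiratory chain and the tricarboxylic acid cycle rose in iWAT, and none of them passed in BAT. All 34 tested nuclear-encoded genes of the respiratory chain rose in iWAT and none rose or fell in BAT, with medians of 0.66 and 0.05. Of the 34, 10 were called for the difference, all lower in BAT (median -0.62, and -0.431 on FPKM with pseudocount 1). The tricarboxylic acid cycle gave 16 of 17 rising in iWAT, none called in BAT and 10 called for the difference (median -0.65, and -0.453 on FPKM with pseudocount 1). Idh3a, a catalytic subunit of isocitrate dehydrogenase, was at 335, 438, 525, 647 and 380 CPM in iWAT at 22 °C and at 783, 864, 603, 1210 and 1140 after 6 h. In BAT Idh3a was at 2680, 2780, 2770, 2590 and 2910 CPM and then at 3320, 3030, 3230, 2980 and 3220, all above the warm range. The BAT rise of 0.20 ± 0.15 did not pass (adjusted p = 0.376), that of iWAT was 0.98 ± 0.15, and the difference was -0.78 ± 0.21 (adjusted p = 0.0186; 0.0533 when only the 20 libraries of the contrast were fitted). The BAT error of Idh3a rests on a spread shared by all groups, and iWAT values varied more relative to their level. BAT began from the higher level: the summed level of the respiratory genes was 28300 to 30300 CPM in BAT at 22 °C, 6560 to 12100 in iWAT at 22 °C and 8560 to 14600 in iWAT after 6 h. In iWAT at 22 °C the library highest in this sum was replicate 4, and the sums overlapped between warm and cold. Uqcrc1, a core subunit of complex III, rose in iWAT from 230.4 ± 62.5 to 379.9 ± 92.4 CPM and stood at 1416 ± 48 and 1355 ± 171 in BAT (difference -0.79 ± 0.21, adjusted p = 0.0174). Of the 13 mitochondrially encoded genes 8 rose in iWAT and none in BAT, and only ND1 was called for the difference (-0.68 ± 0.22, adjusted p = 0.044), a call lost in 17 of the 20 fits that left out a library (largest adjusted p = 0.086, without iWAT at 22 °C replicate 2). Mitochondrial biogenesis had 12 of 19 genes rising in iWAT, 3 rising in BAT and 4 with the lower BAT response (median -0.305, and -0.0839 on FPKM with pseudocount 1).

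The list of pyruvate entry covers the mitochondrial pyruvate carrier, pyruvate dehydrogenase, its kinases and pyruvate carboxylase. It had 8 of 15 genes with the lower BAT response and none with the higher (median -0.77, and -0.53 on FPKM with pseudocount 1). In iWAT 11 of them rose and in BAT 2 fell. Pdk2, a kinase that shuts pyruvate dehydrogenase, was at 362, 353, 339, 329 and 354 CPM in BAT at 22 °C and at 269, 244, 248, 249 and 225 after 6 h, without overlap. In iWAT Pdk2 was at 68.2, 81.8, 93.5, 106 and 72.1 CPM and then at 120, 145, 86.2, 159 and 135, so that it fell in BAT and rose in iWAT (difference -1.11 ± 0.17, adjusted p = 0.000169). Pcx, which makes oxaloacetate, rose in iWAT alone, from 896.8 ± 76.3 to 1325 ± 206 CPM (difference -0.79 ± 0.18, adjusted p = 0.00562). Fatty acid oxidation had 10 of 27 genes lower and 1 higher (median -0.57, and -0.397 on FPKM with pseudocount 1). Of the 27, 20 rose in iWAT, none rose in BAT and 1 fell there. Hsd17b4, of peroxisomal oxidation, rose in iWAT from 271.9 ± 36.5 to 415.5 ± 62.2 CPM without overlap and did not pass in BAT (difference -0.74 ± 0.13, adjusted p = 0.000841). The exception was Cpt1a, the carnitine palmitoyltransferase of liver type that lets fatty acids into mitochondria, which fell in iWAT from 41.1 ± 9 to 24.1 ± 4.18 CPM without overlap and stood at 25.1 ± 3.16 and 30.9 ± 8.68 in BAT (difference 1.07 ± 0.25, adjusted p = 0.008).

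Glucose, glycogen and amino acid genes gave smaller counts, mostly in the same direction, beside 6.03% lower and 3.38% higher over all tested genes. For glycolysis 3 of 23 were lower and 1 higher (median -0.63, -0.38 without iWAT after 6 h replicate 4, and -0.336 on FPKM with pseudocount 1). Pgam1, phosphoglycerate mutase, rose in iWAT from 116.5 ± 22.7 to 227.6 ± 62.1 CPM (difference -0.80 ± 0.19, adjusted p = 0.00847). The hexokinase Hk1 rose in BAT alone from 35.4 ± 4.24 to 59.9 ± 6.02 CPM (difference 1.05 ± 0.23, adjusted p = 0.00471). Glycogen metabolism had 4 of 18 lower and none higher (median -0.479, and -0.269 on FPKM with pseudocount 1). Its Gys1, muscle-type glycogen synthase, rose in iWAT alone (0.38 ± 0.08). Pgm1, phosphoglucomutase, fell in BAT and rose in iWAT (-0.28 ± 0.08 and 0.37 ± 0.08; difference -0.65 ± 0.12, adjusted p = 0.000875). Catabolism of branched-chain amino acids had 6 of 21 lower and none higher (median -0.407, and -0.195 on FPKM with pseudocount 1). It was led by Bckdk, the kinase that inhibits its committed step, which fell in BAT and rose in iWAT (-0.41 ± 0.10 and 0.36 ± 0.10; difference -0.77 ± 0.14, adjusted p = 0.00121).

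**Figure D4:**
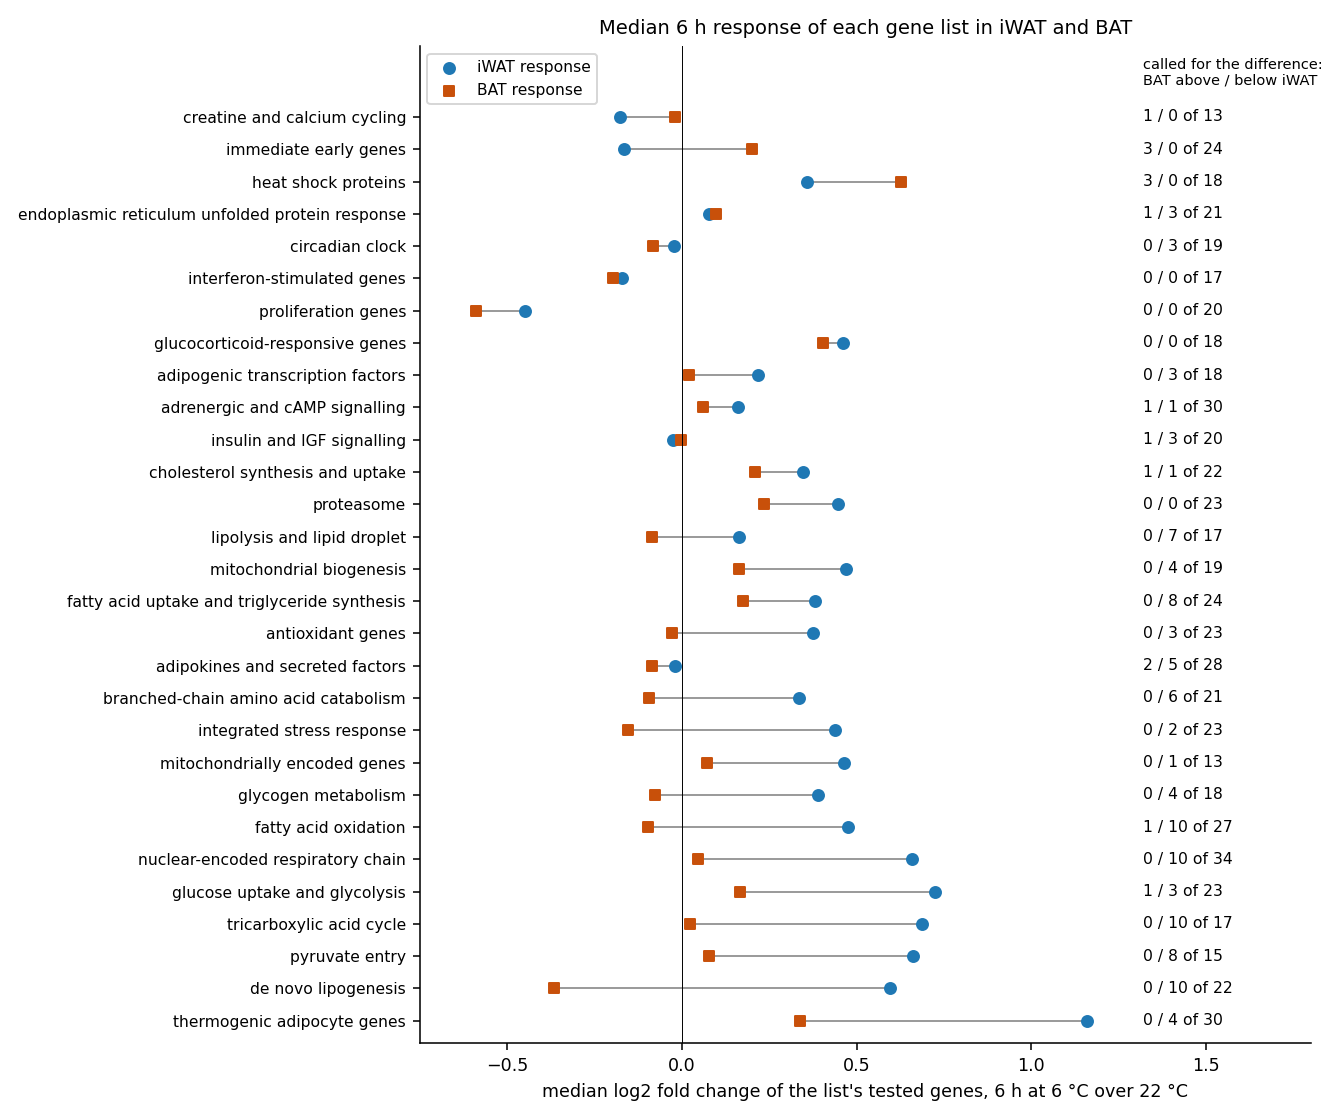
Median log2 fold change after 6 h of each functional gene list in iWAT (circles) and BAT (squares), with the number of genes called for the depot difference above and below. The iWAT median lies right of the BAT median for lists of fuel use, such as 0.66 against 0.05 for the respiratory chain, and left of it for heat shock and immediate early genes.

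More thermogenic genes passed for a rise in iWAT than in BAT, yet few were called for the difference. Of 30 tested, 19 rose in iWAT, 5 rose in BAT, 4 had the lower BAT response and none the higher (median difference -1.03, and -0.645 on FPKM with pseudocount 1). The list's summed level did not overlap in BAT, at 20100 to 25400 CPM at 22 °C and 29700 to 38300 after 6 h (medians 23600 and 32100). In iWAT the sums overlapped, at 520 to 2260 and 1480 to 8640 CPM (medians 900 and 3940). Ucp1 (ENSMUSG00000031710) was at 12600, 13000, 11900, 9650 and 12100 CPM in BAT at 22 °C and at 21200, 14600, 15600, 18000 and 15100 after 6 h. In iWAT it was at 28.8, 138, 653, 523 and 9.01 CPM at 22 °C and at 599, 1710, 453, 4010 and 4400 after 6 h. BAT did not overlap, but iWAT did, and its warm libraries alone ran from 9.01 to 653 CPM. The Ucp1 fold change was 3.05 ± 0.69 in iWAT, which passed, and 0.51 ± 0.64 in BAT, which did not. The fit gave each gene a single spread for all groups, so the wide iWAT values of Ucp1 also entered its BAT error. The missed call therefore does not show that Ucp1 was unchanged in BAT. The depot difference of Ucp1, -2.54 ± 0.92, did not pass (adjusted p = 0.0775). It passed with DESeq2 (adjusted p = 0.0105) and with limma on FPKM with pseudocounts 1 and 0.1 (0.0359 and 0.0428). It also passed without iWAT at 22 °C replicate 3 (0.0332), replicate 4 (0.0352) or iWAT after 6 h replicate 3 (0.0366). In the other 17 fits that left out a library it did not pass. On the linear scale the order was the other way: mean Ucp1 went up by 5059 CPM in BAT and by 1966 CPM in iWAT (3771 and 2058 with unscaled totals).

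The called genes of that list were Ppargc1b, Slc25a20, Letmd1 and Acot11. The call of Letmd1, a mitochondrial protein needed for thermogenesis, was lost in 6 of 20 fits that left out a library (largest adjusted p = 0.0695, without iWAT after 6 h replicate 5), with the 20 libraries alone (0.0728) and on FPKM (0.0679 and 0.076). Ppargc1b (ENSMUSG00000033871), a coactivator of mitochondrial genes, was at 4.36, 3.51, 8.43, 4.17 and 4.03 CPM in iWAT at 22 °C and at 9.92, 14, 11.4, 22.8 and 19.3 after 6 h, without overlap. In BAT Ppargc1b was at 46.8, 55.5, 51.7, 47.1 and 68.1 CPM and then at 51, 58.6, 54.2, 51.3 and 53, within the warm range. The difference was -1.66 ± 0.29 (adjusted p = 0.000835). Its relative Ppargc1a rose in both depots, by 2.40 ± 0.37 in BAT and 2.54 ± 0.38 in iWAT, and the 95% interval of the difference ran from -1.17 to 0.89. The acylcarnitine carrier Slc25a20 rose in iWAT from 134.5 ± 57.5 to 268.7 ± 96.2 CPM and stood at 998.8 ± 26.4 and 951 ± 73.5 in BAT (difference -1.07 ± 0.29, adjusted p = 0.0217; 0.063 when only the 20 libraries were fitted). Outside the list, Ankrd9 rose in iWAT from 3.94 ± 2.35 to 18.6 ± 12.4 CPM and did not pass in BAT (81.8 ± 20.1 to 111.5 ± 20). Its difference of -1.80 ± 0.50 (adjusted p = 0.0234) was lost without iWAT after 6 h replicate 5 (-1.45, adjusted p = 0.0616), with the 20 libraries alone (adjusted p = 0.0596) and on FPKM with pseudocount 1 (adjusted p = 0.0694).

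Other genes known for cold were not called for the difference. Dio2, which makes active thyroid hormone, rose in both depots without overlap, by 1.73 ± 0.57 in BAT and 3.77 ± 0.62 in iWAT, and its difference of -2.05 ± 0.80 did not pass (adjusted p = 0.101). It passed when each group was given its own spread (limma-voom, adjusted p = 0.0184) and without iWAT at 22 °C replicate 4 (adjusted p = 0.0138). The Dio2 difference also passed with DESeq2 (adjusted p = 0.0431) and, on FPKM, only with pseudocount 0.1 (limma, 0.0482). The elongase Elovl3 gave -2.16 ± 0.88 (adjusted p = 0.118) and the pyruvate dehydrogenase kinase Pdk4 -1.60 ± 0.54 (adjusted p = 0.06), each with a called rise in iWAT only. Without iWAT at 22 °C replicate 3 Elovl3 passed (adjusted p = 0.0371), and Pdk4 passed without iWAT at 22 °C replicate 3 or 4 or iWAT after 6 h replicate 1 or 3 (adjusted p from 0.0184 to 0.0396). Pdk4 also passed with DESeq2 (adjusted p = 0.0314) and with the replicate number as a block (0.0427). With a block shared by the depots within a condition Pdk4 passed as well (0.048). The hormones Fgf21 and Gdf15 were under 3 CPM in every library of the contrast, and their differences of -1.91 ± 1.12 and 0.18 ± 1.26 had wide errors. Leptin (Lep) gave -1.0 ± 0.57, the adrenergic receptor Adrb3 -0.13 ± 0.19, and the cold-inducible RNA-binding genes Rbm3 and Cirbp -0.22 ± 0.14 and -0.35 ± 0.22, with adjusted p from 0.278 to 0.703. In adrenergic and cyclic AMP signalling 1 gene of 30 was called in each direction, beside 3.38% above and 6.03% below over all tested genes. Prkar2b, a regulatory subunit of protein kinase A, rose in iWAT alone (difference -0.74 ± 0.16, adjusted p = 0.00385). The kinase scaffold Akap12 rose in BAT and fell in iWAT (0.48 ± 0.17 and -0.51 ± 0.17; difference 0.99 ± 0.24, adjusted p = 0.0105).

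Genes with the higher BAT response were led by several that rose in BAT from low or moderate levels. The largest differences were picked among genes without overlap in the depot with the larger response. For them, size and separation were conditions of being named and are no separate support. Ckb (ENSMUSG00000001270), the creatine kinase of brown fat's creatine cycle, was at 30.1, 42.3, 21, 28.2 and 34.8 CPM in BAT at 22 °C and at 148, 133, 169, 122 and 158 after 6 h. In iWAT Ckb was at 17.3, 13.3, 11.3, 16.6 and 15.5 CPM and then at 18.9, 15.8, 15.7, 9.14 and 19.7. Every cold BAT library was above every other library, and the difference was 2.12 ± 0.27 (adjusted p = 3.82e-05). Ckb was the only called gene of the 13 tested in the list of creatine and calcium cycling.

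Npr3 (ENSMUSG00000022206), the clearance receptor that removes natriuretic peptides, was at 79.6, 84.8, 77.7, 60.7 and 112 CPM in BAT at 22 °C and at 145, 279, 344, 351 and 329 after 6 h. In iWAT it was at 457, 305, 346, 139 and 524 CPM and then at 150, 194, 320, 227 and 236. It rose in BAT without overlap (1.8 ± 0.35), the iWAT value of -0.65 ± 0.34 did not pass, and the Npr3 difference was 2.46 ± 0.49 (adjusted p = 0.00224). E2f2, a cell cycle transcription factor, was at 7.19, 5.57, 4.63, 3.25 and 7.56 CPM in BAT at 22 °C and at 28, 39.3, 38.3, 49.2 and 36.7 after 6 h. In iWAT E2f2 was at 1.97 to 2.62 CPM at 22 °C and at 2.38, 2.51, 1.71, 6.74 and 6.35 after 6 h, where replicates 4 and 5 stood above the rest. Its difference was 1.99 ± 0.42 (adjusted p = 0.00386), while none of 20 proliferation genes was called.

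The tight junction protein Cldn1 rose in BAT from 8.64 ± 2.83 to 58.9 ± 6.95 CPM and stood at 3.01 ± 1.91 and 2.63 ± 1.65 in iWAT (difference 2.97 ± 0.56, adjusted p = 0.00151). Fgf9, a fibroblast growth factor, rose in BAT from 3.1 ± 0.951 to 11.2 ± 2.7 CPM and was under 0.7 CPM in all iWAT libraries. Its difference of 2.79 ± 0.60 (adjusted p = 0.00421) was not called when each group had its own spread (adjusted p = 0.0701). Bdh1, the mitochondrial hydroxybutyrate dehydrogenase of ketone metabolism, was at 0.366, 0.594, 0.189, 0.442 and 1.74 CPM in BAT at 22 °C and at 6, 11, 16.7, 6.18 and 15.9 after 6 h, a rise of 4.05 ± 0.45. In iWAT it summed to 29 counts over the 5 warm libraries and 2 over the 5 cold, a ratio of 0.0912 with an exact Poisson 95% interval of 0.0105 to 0.36 that covers counting error only. The fitted depot difference of Bdh1, 7.14 ± 1.14 (adjusted p = 0.000281), leans on those few iWAT counts, and it was not called when each group had its own spread (adjusted p = 0.0607). Opposite movements were also called for genes best known from neurons: the calcium channel Cacna1a rose in BAT and fell in iWAT (1.4 ± 0.22 and -0.80 ± 0.24; difference 2.20 ± 0.32, adjusted p = 0.000105). The microtubule protein Map1b did the same (1.57 ± 0.19 and -0.62 ± 0.18; difference 2.19 ± 0.26, adjusted p = 2.01e-05).

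Of 18 heat shock genes, which encode mainly chaperones that refold proteins, 12 rose in BAT and 7 in iWAT, and 3 were called for the difference, all higher in BAT. The list's median difference of 0.29 fell to 0.04 without iWAT at 22 °C replicate 4, to 0.05 without BAT after 6 h replicate 1, and to 0.139 and 0.111 without BAT at 22 °C replicates 1 and 5, and it was 0.466 on FPKM with pseudocount 1. Hsp90aa1 (ENSMUSG00000021270), the inducible form of the chaperone HSP90, was at 377, 501, 498, 594 and 326 CPM in BAT at 22 °C and at 1370, 1290, 1560, 1430 and 1610 after 6 h. In iWAT Hsp90aa1 was at 204, 209, 265, 358 and 211 CPM and then at 280, 388, 287, 383 and 425. BAT separated fully and iWAT overlapped, with rises of 1.66 ± 0.17 and 0.50 ± 0.16 and a difference of 1.16 ± 0.23 (adjusted p = 0.00221). The constitutive form Hsp90ab1 rose in BAT alone from 1148 ± 119 to 2263 ± 389 CPM (difference 0.93 ± 0.18, adjusted p = 0.00224). The nucleotide exchange factor Hspa4l rose in BAT alone from 66.2 ± 7.83 to 226 ± 20.2 CPM (difference 1.43 ± 0.20, adjusted p = 6.41e-05).

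Immediate early genes had 3 of 24 with the higher BAT response and none with the lower (median 0.42). Maff, a small MAF factor, went from 3.47 to 6.99 CPM at 22 °C to 12 to 18.3 after 6 h in BAT, and from 2.51 to 3.66 to 3.04 to 5.31 in iWAT, rising in both (1.70 ± 0.21 and 0.56 ± 0.21; difference 1.14 ± 0.30, adjusted p = 0.0164). Arc, a synaptic immediate early gene, rose in BAT alone from 0.99 ± 0.198 to 4.72 ± 1.8 CPM (difference 2.35 ± 0.47, adjusted p = 0.00259). The AP-1 subunit Fosl2 rose in BAT alone from 23.4 ± 8.64 to 36.3 ± 6.66 (difference 1.06 ± 0.26, adjusted p = 0.0124). The orphan receptors Nr4a1 and Nr4a3 gave -1.05 ± 0.74 and -0.15 ± 0.58 and were not called. In the unfolded protein response of the endoplasmic reticulum the calls split: Sdf2l1, a cofactor of lumenal chaperones, rose in BAT alone from 1.08 ± 0.176 to 2.69 ± 0.76 CPM (difference 1.90 ± 0.36, adjusted p = 0.0015). Dnajb9, a co-chaperone of BiP, rose in iWAT alone from 64.5 ± 19.2 to 121.4 ± 27.1 CPM (difference -0.98 ± 0.22, adjusted p = 0.00531). Of 23 integrated stress response genes 2 had the lower BAT response, beside 6.03% of all tested genes. Among them was the asparagine synthetase Asns, which rose in iWAT alone (difference -0.83 ± 0.20, adjusted p = 0.00847).

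A further set differed because iWAT fell. Emp1 (ENSMUSG00000030208), an epithelial membrane protein, was at 365, 301, 313, 185 and 391 CPM in iWAT at 22 °C and at 96.1, 99.3, 183, 79.9 and 90.9 after 6 h. In BAT Emp1 was at 33.7, 32.6, 33.9, 42.7 and 31.5 CPM and then at 43.3, 47, 45.7, 52 and 38.8. The difference was 1.88 ± 0.39 (adjusted p = 0.00363), from a change of -1.5 in iWAT and 0.38 ± 0.28 in BAT, which did not pass. Cd34, a marker of adipose progenitors and endothelium, fell in iWAT from 134.3 ± 49 to 57.8 ± 19.5 CPM and stood at 42.9 ± 14.9 and 38.8 ± 5.06 in BAT. Its difference of 1.07 ± 0.34 (adjusted p = 0.0461) was lost in 14 of the 20 fits that left out a library, with a largest adjusted p of 0.0919 without iWAT at 22 °C replicate 1.

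Markers of stromal cells moved with these differences. Of 17 progenitor and fibroblast markers 11 fell in iWAT and 1 rose, 3 fell in BAT, and 2 had the higher BAT response (median difference 0.48). Their summed level was 1180 to 2480 CPM in iWAT at 22 °C and 880 to 1580 after 6 h, and 553 to 756 and 513 to 662 CPM in BAT. The endothelial list had 3 of 17 higher (median 0.38), with 8 falling in iWAT and 3 rising in BAT. Pecam1, an adhesion molecule of endothelium, rose in BAT from 125 ± 11.3 to 185.1 ± 12.5 CPM and fell in iWAT from 110 ± 29 to 84.2 ± 10.2 (difference 0.95 ± 0.19, adjusted p = 0.00197). The angiopoietin receptor Tek fell in iWAT alone (difference 0.63 ± 0.17, adjusted p = 0.0191). The call of the endothelial gene Cdh5 was lost in 9 of the 20 fits that left out a library and with the 20 libraries alone (adjusted p = 0.0773). Collagen and matrix genes had 3 of 22 higher (median 0.246, 0.426 on FPKM with pseudocount 1, and 0.142 without iWAT at 22 °C replicate 1), with 8 falling in iWAT. The calls of the matrix genes Eln, Col4a2 and Col4a1 were lost in 12, 5 and 2 of the 20 fits that left out a library. With the 20 libraries alone Col4a1 and Col4a2 were not called either (adjusted p = 0.0529 and 0.0597). No macrophage marker of 16 was called for the difference (median 0.51), although 4 fell in iWAT, where their sum went from 507 to 1110 CPM down to 448 to 821. General adipocyte markers went the other way: 3 of 9, Lipe, Cidec and Pnpla2, had the lower BAT response, and the summed level was 24400 to 30400 CPM in warm iWAT, 32100 to 38700 in cold iWAT, 20000 to 20400 in warm BAT and 20000 to 22800 in cold BAT. In bulk tissue fewer cells of a type and less RNA per cell cannot be told apart, and the part of this shift in the differences of other genes was not tested.

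**Figure D5:**
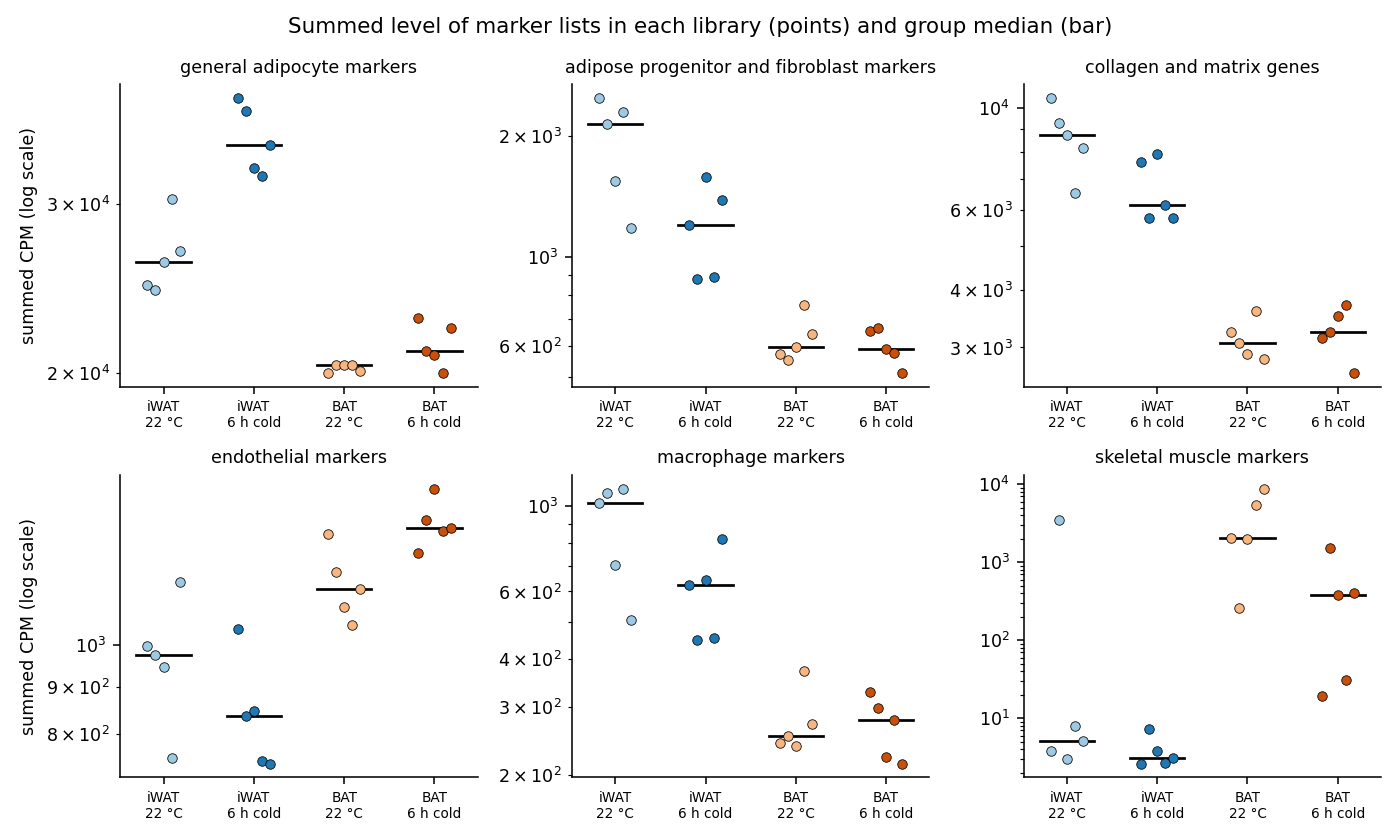
Summed CPM of marker lists in each library (points, 5 per group; bars are group medians; log axes). In iWAT the adipocyte sum is higher in all 5 cold libraries (32100 to 38700 CPM) than in the warm ones (24400 to 30400), the progenitor, matrix and macrophage sums have lower medians in the cold, and 1 warm iWAT library carries 3500 CPM of muscle transcripts.

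Of the 31 genes called in both depots in the same direction and called for the difference, 19 rose and 12 fell. Nnmt (ENSMUSG00000032271), which methylates nicotinamide, was at 79.3, 115, 52.6, 79.4 and 72.3 CPM in BAT at 22 °C and at 340, 242, 263, 243 and 290 after 6 h. In iWAT Nnmt was at 165, 158, 160, 197 and 174 CPM and then at 310, 254, 225, 166 and 256, so iWAT was higher in the warm and the depots overlapped in the cold (difference 1.28 ± 0.22, adjusted p = 0.000503). Sgk2, a serum and glucocorticoid regulated kinase, was at 0, 0, 0.183, 0.482 and 0 CPM in warm iWAT and at 0.254, 1.75, 0.442, 9.1 and 13.3 in the cold, and rose in BAT from 18.2 ± 6.77 to 69.6 ± 12.7. Its fitted difference of -3.43 ± 1.06 (adjusted p = 0.0398) was lost without any of 11 libraries (largest adjusted p = 0.105, without iWAT after 6 h replicate 5) and had the opposite sign on FPKM with pseudocount 1 (0.72).

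Most shared responses were not called apart: 971 genes passed in both depots in the same direction, 704 rising and 267 falling, and 940 of them were not called for the difference. A missed call does not show equal responses, and the intervals were of unequal use. For the cell cycle inhibitor Cdkn1a, which rose by 1.97 ± 0.21 in BAT and 2.12 ± 0.21 in iWAT, the 95% interval of the difference was -0.74 to 0.44. For the lysophospholipid transporter Mfsd2a it was -2.52 to -0.03, for the mitochondrial carrier Slc25a34 -2.87 to -0.41, for Dio2 -3.68 to -0.42 and for the exchange factor Arhgef37 0.20 to 1.79, all of which exclude 0 before adjustment over the 14089 genes. Slc25a34 was called without iWAT at 22 °C replicate 3 or 4 or iWAT after 6 h replicate 1 or 3, and Arhgef37 without BAT after 6 h replicate 1 (adjusted p = 0.0191).

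Of 19 circadian clock genes 4 fell and 5 rose in BAT, 2 fell and 5 rose in iWAT, and 3 had the lower BAT response. Dbp, a factor driven directly by the core clock, was at 57.3, 46.1, 59.8, 56.5 and 48 CPM in BAT at 22 °C and at 19, 21.6, 21.7, 24.9 and 22.6 after 6 h. In iWAT Dbp was at 89.1, 83.4, 88.6, 80.4 and 89.6 CPM and then at 53.3, 75.1, 72.3, 74 and 56.5. It fell without overlap in both depots and further in BAT (-1.29 ± 0.12 and -0.38 ± 0.12; difference -0.91 ± 0.17, adjusted p = 0.00138). The related factor Hlf fell in BAT alone from 79.4 ± 8.97 to 44.1 ± 6.21 CPM (difference -0.76 ± 0.19, adjusted p = 0.0132; not called on FPKM, adjusted p = 0.0906 and 0.0988). The call of Rora, a nuclear receptor that activates clock genes (difference -0.45 ± 0.15, adjusted p = 0.0468), was lost in 15 of the 20 fits that left out a library (largest adjusted p = 0.0957, without BAT after 6 h replicate 3). The list's median of -0.04 was positive on FPKM (0.155 with pseudocount 1, against 0.128 over all tested genes) and without iWAT after 6 h replicate 2 (0.00317). Per1 gave -0.26 ± 0.18 and was not called. The labels used here give no clock time of sampling.

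Several lists gave few or no calls for the difference, beside 6.03% lower and 3.38% higher over all tested genes. Of 23 proteasome genes 21 rose in iWAT and 7 in BAT, yet none was called apart (median difference -0.26, and -0.0315 on FPKM with pseudocount 1), and none of 18 glucocorticoid-responsive genes was, with 8 rising in iWAT and 6 in BAT. Antioxidant genes had 3 of 23 lower and none higher, among them Cat, the peroxisomal catalase (difference -0.70 ± 0.15, adjusted p = 0.00363). Cholesterol synthesis and uptake had 1 of 22 in each direction: Srebf2, the factor that drives the pathway, gave 0.61 ± 0.15 (adjusted p = 0.0134). Hmgcs1, its hydroxymethylglutaryl-CoA synthase, gave -0.60 ± 0.16 (adjusted p = 0.02; not called on FPKM, 0.0626 and 0.0731). No lymphocyte, smooth muscle, Schwann cell, skeletal muscle or interferon-stimulated gene of the lists was called for the difference. The skeletal muscle list was not quiet, though: of 11 tested genes 8 fell in iWAT and 2 in BAT. Its median difference of 4.45 was -1.69 on FPKM with pseudocount 1. Without iWAT at 22 °C replicates 2 and 4 and iWAT after 6 h replicate 3 it was -3.33. How far muscle transcripts entered the differences of other genes was not tested.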

How the data were processed

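PolyA RNA of 30 libraries was sequenced, and the contrast used 20 of them. The deposited tables hold raw counts per gene, made by the authors with HISAT2 and HTSeq on GRCm39 per the submitters' processing notes; versions and strandedness are not given in the sources used here, so reads of overlapping or antisense genes cannot be told apart. Between libraries, the deposited FPKM scale with the count divided by the library's total, which was checked for well-counted entries only. The division by gene length was not checked.

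Counts were fitted with edgeR 4.0.16 (R 4.3.3) as a quasi-likelihood model of 6 group means over 30 libraries, with TMM factors and filterByExpr (minimum count 10). Each gene had a single spread for all groups, although groups differed (mean limma-voom weight 1.47 in warm BAT and 0.666 in cold iWAT, lower for more spread). A gene that varied more in iWAT could therefore miss its own call in BAT and pass too easily in iWAT. The counts called in iWAT, and those called in iWAT alone, carry this limit. The depot difference was the contrast of the responses, with Benjamini-Hochberg adjustment over 14089 genes and SE = |log2 fold change| divided by the square root of F. CPM are TMM-scaled, and ± beside a CPM is the SD over 5 libraries. Of the 21652 genes, 495 carry no symbol. Genes were named by rule. The first rule took the 10 largest differences in each direction without overlap between cold and 22 °C libraries in the depot with the larger response. Others took 20 genes known for cold, up to 3 called genes per list, and the leading genes called in both depots. The gene lists and named genes were chosen with earlier results of these data known. Acot11 is named as a called member of the thermogenic list, outside that rule, and was not followed under the alternatives.

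Alternatives were RLE and upper-quartile factors, DESeq2 1.42.0, other filters, the 20 libraries alone, limma 3.58.1 on log2(FPKM + 1) and log2(FPKM + 0.1), limma-voom with a spread per group, replicate blocks, and leaving out each library. On simulated data (13989 genes, 200 changed) 78% of depot differences of log2 size 1 and 94% of size 2 were recovered, with 6.01% of 183 calls false. The changed genes were drawn from those with higher mean counts, and each gene was given the same spread in every group. These shares therefore do not carry over to genes of few counts or to groups of unequal spread.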

Additional observations from a re-analysis of the deposited data

Results flagged for a closer look

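Part of the described genes and of the marker lists was examined for a library apart, and the rest was not. In 11 of 132 groups of 5 libraries for those genes, and in 4 of 20 for those lists, 1 library lay far from the other 4 (gap to the nearest over the whole range above Dixon's critical value of 0.71). Chance gives about 1 in 20 such groups. In warm iWAT, Ppargc1b was at 8.43 CPM in replicate 3 against 3.51 to 4.36 in the others, and Aacs at 129 in replicate 1 against 187 to 202. In cold iWAT, replicate 3 was apart for Maff (3.04 CPM against 4.82 to 5.31) and Emp1 (183 against 79.9 to 99.3), both closer to the warm libraries than the others were. In warm BAT, Slc27a1 was at 132 CPM in replicate 5 against 184 to 204, Bdh1 at 1.74 in replicate 5 against 0.189 to 0.594, Maff at 6.99 in replicate 1 against 3.47 to 4.12, and Sgk2 at 29.8 in replicate 2 against 12.1 to 17.2. Replicate 4 of warm BAT was apart for Emp1 (42.7 CPM against 31.5 to 33.9), Cd34 (68.5 against 30.5 to 40.6) and the summed macrophage markers (373 against 237 to 271). In cold BAT, Hspa4l was at 191 CPM in replicate 1 against 231 to 244. Summed skeletal muscle markers were apart in replicate 2 of 3 groups: 3500 CPM in warm iWAT against 3.03 to 7.91, 7.26 in cold iWAT against 2.63 to 3.75, and 1530 in cold BAT against 19.1 to 407.

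The depots' responses had opposite called directions for 17 named genes. All of them were also called for the difference, which opposite calls largely ensure. BAT rose and iWAT fell for Bdh1 (log2 difference 7.14), Cacna1a (2.20), Map1b (2.19), Ankrd33b (2.13), Mmp23 (1.58), Akap12 (0.99) and Pecam1 (0.95). BAT fell and iWAT rose for Thrsp (-2.24), Pnpla3 (-1.48), Slc27a1 (-1.32), Pdk2 (-1.11), Cidec (-0.90), Nampt (-0.81), Lipe (-0.77), Bckdk (-0.77), Pck1 (-0.74) and Pgm1 (-0.65). The call of Ankrd33b was lost when each group had its own spread (adjusted p = 0.11).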

How the results depend on the processing

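Every one of the 1325 differences kept its sign under RLE and upper-quartile factors, and 1317 did on FPKM with pseudocount 1. On that scale 2606 genes were called (2205 above, 401 below), 6313 in the iWAT response, 1724 in iWAT alone and 148 in neither depot. With pseudocount 0.1 there were 1525 above, 369 below, 1080 in iWAT alone and 108 in neither. Without iWAT at 22 °C replicates 2 and 4 and iWAT after 6 h replicate 3, an alternative chosen after seeing the data, 2251 were called, 1544 of them below, with 1318 in iWAT alone, 132 in the same direction in both and 143 in neither. DESeq2 called 1839, with 56 in the same direction and 119 in neither. Genes in the same direction numbered 20 without a filter and 16 with 20 libraries only. Leaving out 1 library gave 862 to 2173 calls, 303 to 667 above and 546 to 1506 below, 2016 to 2872 in BAT and 2887 to 4579 in iWAT. By class it gave 355 to 675 in BAT alone, 322 to 1241 in iWAT alone, 49 to 138 in opposite directions, 11 to 91 in the same direction and 32 to 149 in neither. The cause of these shifts was not tested.

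Equal replicate numbers did not meet the bar for pairing, a correlation over 0.1 in every pair. The correlation of deviations between same-numbered libraries ran from -0.534 to 0.0617 at 22 °C from -0.0653 to 0.26 after 6 h and from 0.0824 to 0.342 after 24 h. Over 0.1 were 0, 2 and 3 of 5 pairs, and after 24 h all 5 iWAT libraries correlated best with their own number, a hint from the data and not the design. With the number as a replicate block 1571 genes were called, and with a block shared by the depots within a condition 2085 (747 above, 1338 below).

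Among the named genes, signs turned only for uncalled differences and for Sgk2. On FPKM with pseudocount 1 the difference was 0.57 for Ppargc1a, 0.076 for Adrb3, 0.47 for Nr4a3, 0.72 for Sgk2, 0.75 for Mfsd2a and 0.25 for Cdkn1a. With pseudocount 0.1 it was 0.40 for Ppargc1a, 0.07039 for Adrb3 and 0.10 for Cdkn1a. Ppargc1a gave 0.17 with limma-voom, 0.065 with the replicate block and 0.17 with the shared block, and Gdf15 -0.75 without the 3 iWAT libraries. Leaving out 1 library gave -0.35 to 0.22 for Ppargc1a, -0.21 to 0.82 for Gdf15, -0.92 to 0.12 for Nr4a3, -0.072 to 0.0798 for Vegfa and -0.33 to 0.00027 for Cdkn1a. Depth limits Bdh1 in cold iWAT, where 5 libraries hold 2 counts, while Sgk2 there varied from 0.254 to 13.3 CPM between libraries.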
